A study of Mus musculus with 6 samples.

Results

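The 10 genes that release, store and take back calcium in muscle were examined in muscle of 3 mice labelled SIRT6 knockout (KO) and 3 mice labelled wild type (WT), all of the 129SvJ strain background. The genes were Ryr1, Cacna1s, Atp2a1, Atp2a2, Casq1, Casq2, Pln, Sln, Pvalb and Jph1. They were found through the platform annotation, and every probe set that names 1 of them was kept, which gave 20 of the 45037 probe sets tested. A probe set pools several short probes that target one transcript. Each mouse contributed 1 Affymetrix Mouse Genome 430 2.0 array, and the values are intensities on a linear scale. The labels give neither the muscle, the age nor the sex of the animals, and SIRT6 is a deacylase that acts on chromatin.

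A muscle fibre contracts when calcium leaves the sarcoplasmic reticulum and relaxes when pumps return it. The voltage sensor Cacna1s lies in the transverse tubule and opens the release channel Ryr1 across a gap that junctophilins such as Jph1 hold together. Calsequestrins buffer calcium inside the store, with Casq1 the main form of fast skeletal muscle and Casq2 the form of heart and slow fibres. The pumps are SERCA1 (Atp2a1) in fast fibres and SERCA2 (Atp2a2) in slow fibres and heart. Pln and Sln encode small membrane proteins that restrain these pumps, and Pvalb encodes a soluble calcium buffer of fast fibres.

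Sirt6 itself read 22.6, 18.3 and 13.7 in KO muscle, against 23.2, 15.1 and 21.3 in WT muscle (1429631_at). The groups overlapped, and since it is not known here whether this probe set lies in the deleted part of the gene, it does not check the labels. Xist (1436936_s_at), which is made from the inactive X chromosome, read 715.4 to 1165.7 in KO muscle and 24.5 to 31.3 in WT muscle, while the Y-linked Eif2s3y (1417210_at) read 1.1 to 4.1 in KO muscle and 44.5 to 77.1 in WT muscle. Genotype and sex therefore cannot be told apart in any comparison below. The array medians lay between 11.0 and 13.5 in KO muscle and between 10.8 and 15.0 in WT muscle. The 9 probe sets of hybridization controls, labelled transcripts added to the hybridization mix, averaged 1.93 times as bright in WT replicate 1 as in WT replicate 2, and 0.957 to 1.01 times in the other 4 arrays. All 6 skeletal muscle markers (Ckm, Acta1, Ttn, Neb, Mb and Des) were bright in every array. Their summed intensity was 35297 to 36595 in KO muscle and 33795 to 55484 in WT muscle, where the highest sum was that of WT replicate 1.

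Upstream sequence was at hand for 7 of the 10 genes. That of the calsequestrins is shown because they are a fast and slow pair whose levels differed in different KO arrays. Each stretch holds the 250 bases before the RefSeq transcription start (GRCm38.p6), at chr1:172219896-172220145 on the minus strand for Casq1 and at chr3:102086165-102086414 on the plus strand for Casq2. Capitals mark the E-box letters CANNTG, the site pattern of MyoD-like factors.
Casq1: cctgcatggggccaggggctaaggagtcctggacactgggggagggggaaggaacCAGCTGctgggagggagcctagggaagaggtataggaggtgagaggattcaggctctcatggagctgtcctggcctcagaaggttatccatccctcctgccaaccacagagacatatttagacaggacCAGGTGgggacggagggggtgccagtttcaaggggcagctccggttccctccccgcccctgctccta
Casq2: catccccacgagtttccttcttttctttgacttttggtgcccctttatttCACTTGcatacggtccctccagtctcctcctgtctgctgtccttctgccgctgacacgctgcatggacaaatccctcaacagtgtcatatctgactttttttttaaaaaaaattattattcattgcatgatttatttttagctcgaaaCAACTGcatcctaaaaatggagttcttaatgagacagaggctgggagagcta
Both strands were searched, and each stretch held 2 matches, which began 195 and 67 bases before the start in Casq1 and 200 and 52 bases before it in Casq2. Such a match is common: 66.2% of the 32851 promoter stretches of the same length in the RefSeq table had at least 1. The TATA box letters TATAAA, found in 12.4% of them, had no match in either stretch.

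In the fit over all probe sets none of the 20 passed the threshold, an adjusted p under 0.05 by limma with Benjamini-Hochberg adjustment (lowest adjusted p = 0.529), where 0.00888% of all probe sets did. At an unadjusted p under 0.05 there were 3 of the 20, all of Atp2a2 and all higher in KO muscle, where 8.56% of all probe sets lay under it in either direction and 3.57% were higher in KO muscle. Groups that did not overlap were found for 4 of the 20 probe sets (20%), 3 of Atp2a2 and 1 of Sln, all higher in KO muscle, against 12.3% of all probe sets in either direction and 5.02% with KO higher. The 3 of Atp2a2 measure 1 gene on the same arrays and are not separate results. By the brightest probe set of each member gene, Sln alone did not overlap, where 4.51% of all genes were higher in KO muscle without overlap. With a filter to the 22518 probe sets above the median level, where limma was refitted and 0.351% passed, none of the 17 members kept did. Changes are given on the log2(intensity + 16) scale, which understates those of dim probe sets. By group means on that scale, 10 members were higher and 10 lower, and their median log2 change was 0.05, beside -0.01 over all probe sets. Counts of genes with higher or lower means on the lists below are also by means on that scale. Of all 18193 genes, each by its brightest probe set, 46.8% had the higher mean in KO muscle. In whole muscle, fewer cells of a type and less RNA per cell cannot be told apart.

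A mean of at least 16 over the 6 arrays was reached by 15 probe sets of 9 genes, and the other 5 are given as values without a fold. The dim ones were all 3 probe sets of Pln, 1 of Sln and 1 of Atp2a2. Nearest to the limit were Pln 1450952_at, with a mean of 15.1, and Atp2a2 1437797_at, with 23.4. The groups did not overlap for 3 of the 15, with KO higher in each, beside 15.2% of the 19376 probe sets at this level in either direction and 5.83% with KO higher. Atp2a2 1437797_at is among these 3, with a mean of 12.0 in WT muscle and 34.8 in KO muscle. It reached the level only through the KO arrays, so its place in this count depends on them. Of the 15, KO replicate 2 was the highest array for 7 and KO replicate 3 the lowest for 6. WT replicate 3 was also the lowest for 6, while KO replicate 2 was the lowest for none.

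**Figure D1:**
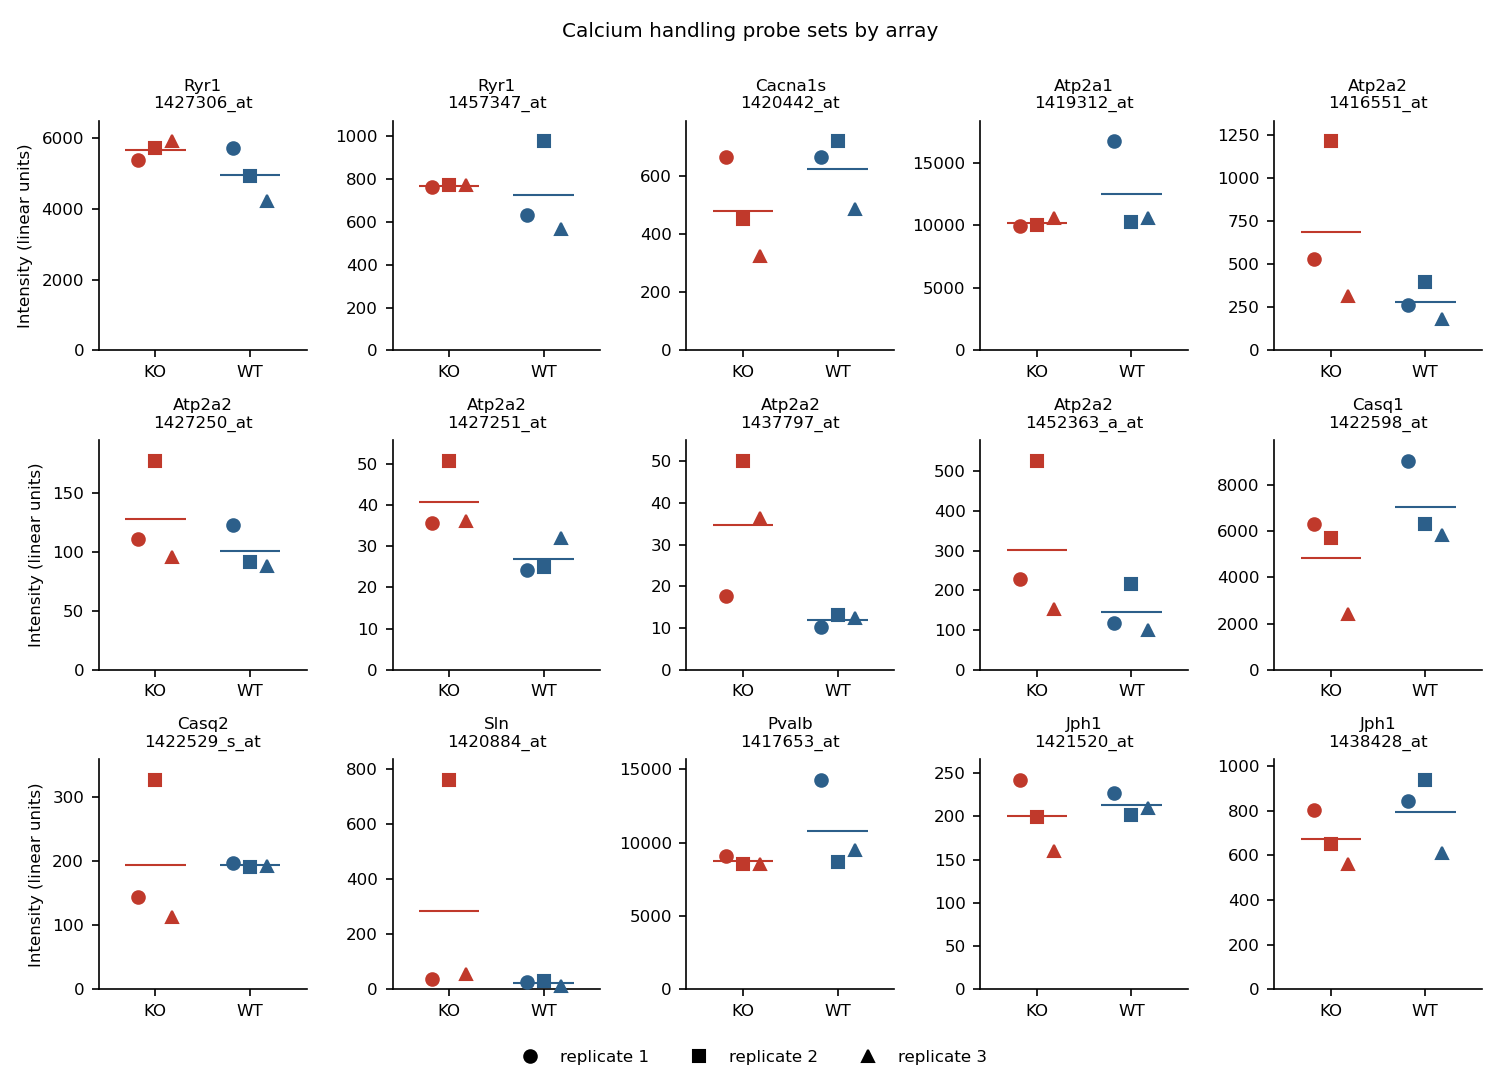
Intensity (linear units) of the 15 calcium handling probe sets with a mean of at least 16, with KO muscle in red and WT muscle in blue, 1 point per array, marker shape for the replicate and a line at the group mean. KO replicate 2 stands alone for Sln 1420884_at (757.9) and is the highest array in all 5 Atp2a2 panels, and KO replicate 3 is the lowest for Casq1 (2434.2).

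The slow and cardiac pump gene Atp2a2 had higher means in KO muscle at all 5 of its brighter probe sets, without passing the test at any. Its brightest, 1416551_at, read 529.6, 1213 and 316.7 in KO muscle, against 266, 396.2 and 179.9 in WT muscle. KO replicates 1 and 2 lay above every WT array and KO replicate 3 below WT replicate 2, so the groups overlapped. The means were 686 ± 468 in KO muscle and 281 ± 109 in WT muscle (SD, n = 3 each), a fold of 2.14 with a 95% interval of 0.944 to 4.85 (adjusted p = 0.602 by limma). Probe set 1452363_a_at, whose suffix marks probes shared by alternative transcripts of the gene, ran in the same order of arrays, with 229.5, 526 and 152.3 in KO muscle and 118.6, 216.7 and 100.3 in WT muscle. Its fold was 1.83 (interval 0.857 to 3.92, adjusted p = 0.649).

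At 2 dimmer Atp2a2 probe sets every KO array lay above every WT array. Probe set 1437797_at read 17.8, 50.1 and 36.4 in KO muscle, against 10.3, 13.2 and 12.4 in WT muscle. This probe set had the lowest p of the 20, with a fold of 1.75 (interval 1.17 to 2.62) and an unadjusted p of 0.0139, but its adjusted p was 0.529 by limma. All its WT arrays lay under 16, so it reached a mean of 16 only through the KO arrays. Its log2 change was 1.35 with an offset of 1 and 0.365 with an offset of 64, so the size of its fold rests on the offset. Probe set 1427251_at read 35.5, 50.7 and 36.2 in KO muscle, against 24.2, 24.9 and 31.9 in WT muscle, a fold of 1.32 (interval 1.02 to 1.70, adjusted p = 0.572). The groups overlapped at 1427250_at, which read 111, 177.2 and 95.9 in KO muscle and 123, 91.2 and 88.1 in WT muscle. The dim probe set 1443551_at read 7.8, 14.7 and 5 in KO muscle and 1.3, 1.4 and 2.5 in WT muscle, again without overlap. KO replicate 2 was the highest array at all 6 Atp2a2 probe sets. Without it the folds of the 5 brighter ones ran from 1.03 at 1427250_at, through 1.21 at 1427251_at and 1.32 at 1452363_a_at, to 1.50 at 1416551_at and 1.51 at 1437797_at.

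The fast pump gene Atp2a1 was at the top of the measured range. Its probe set 1419312_at read 9964.5, 10051.1 and 10562.5 in KO muscle, against 16715.8, 10231.5 and 10573.2 in WT muscle. WT replicate 1, the array with the brighter hybridization controls, stood alone, and the other 5 arrays lay within 9964.5 to 10573.2. The fold was 0.837 (interval 0.595 to 1.18, adjusted p = 0.780), and it was 0.980 without WT replicate 1. In each array this probe set reached 93.4% to 100% of the highest intensity on that array, so differences between arrays may be compressed at this level.

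Sln, whose product sarcolipin restrains the SERCA pumps, had the largest ratio of highest to lowest array among the 20 probe sets, 64.2. Probe set 1420884_at read 35.9, 757.9 and 54.8 in KO muscle, against 25.9, 28.8 and 11.8 in WT muscle. All KO arrays lay above all WT arrays, but KO replicates 1 and 3 were close to the WT range and KO replicate 2 was far from both. The means were 283 ± 411 in KO muscle and 22.2 ± 9.09 in WT muscle (SD, n = 3 each). The fold was 3.79 with an interval of 0.770 to 18.7 (adjusted p = 0.635 by limma), and without KO replicate 2 it was 1.62. The other Sln probe set, 1420883_at, read 1.2 to 2.8 in KO muscle and 1.8 to 2.9 in WT muscle, near the bottom of the scale in every array, KO replicate 2 included.

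Pln, which encodes phospholamban, the SERCA2 inhibitor of heart and slow muscle, was dim throughout. Probe set 1450952_at read 8.5, 10.2 and 19.7 in KO muscle and 19.1, 15.3 and 17.8 in WT muscle. Probe set 1460332_at read 12.7, 19.3 and 16.8 in KO muscle and 9, 16 and 9.1 in WT muscle. Probe set 1423359_at read 9.6, 5 and 6.5 in KO muscle and 12.2, 5.2 and 8.5 in WT muscle. The groups overlapped at all 3, and KO replicate 2, the array with the most Atp2a2 and Sln signal, was the highest at 1460332_at alone.

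**Figure D2:**
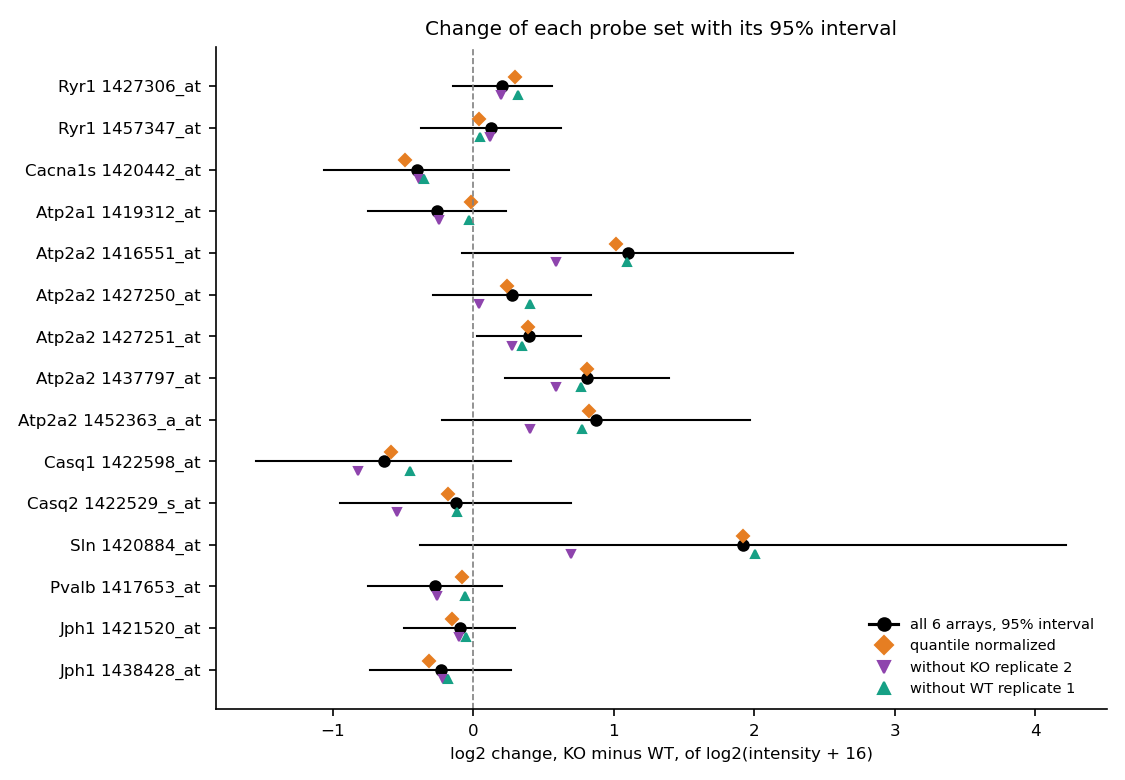
Log2 change, KO minus WT, of the 15 probe sets (black points) with 95% intervals (lines), beside the change after quantile normalization (orange), without KO replicate 2 (purple) and without WT replicate 1 (green). The interval lies above 0 for Atp2a2 1427251_at and 1437797_at and spans 0 for the other 13. Leaving out KO replicate 2 brings Sln 1420884_at to 0.70.

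The median of a slow fibre list ranked the arrays as Atp2a2 did at its 2 brightest probe sets, 1416551_at and 1452363_a_at. Of its 11 genes, 10 had higher means in KO muscle and none passed the test (lowest adjusted p = 0.560). The list's median log2 change was 1.02, beside -0.02 over the 18193 genes represented by their brightest probe set. It was 0.53 without KO replicate 2, and 0.65 when the probe sets of each gene were averaged. The median log2 distance of the list from the WT mean was 0.71, 1.94 and 0.31 in KO muscle, against 0.11, 0.59 and -0.63 in WT muscle. That of Atp2a2 1416551_at was 0.94, 2.12 and 0.23 in KO muscle, against -0.01, 0.54 and -0.53 in WT muscle. Both measures ranked the 6 arrays alike, with KO replicate 2 first and WT replicate 3 last. The other Atp2a2 probe sets shared the highest array but not the whole order, and at 3 of the 6 WT replicate 1 was the lowest.

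Among the named slow genes, Myh7, which encodes slow myosin, read 420.4, 1859.9 and 281.1 in KO muscle, against 167.7, 313 and 87.2 in WT muscle (adjusted p = 0.582 by limma). Tpm3, slow tropomyosin, read 221.4, 769.9 and 181.9 in KO muscle, against 95.5, 162.3 and 37.5 in WT muscle (adjusted p = 0.564). Myoz2, a calcineurin-binding protein of the Z-disc, read 640.2, 1523.8 and 684.1 in KO muscle, against 397.5, 538.3 and 266 in WT muscle (adjusted p = 0.560). Tnnc1, slow and cardiac troponin C, read 264.2, 801.4 and 205.7 in KO muscle, against 142.4, 199.2 and 69.6 in WT muscle (adjusted p = 0.575). The groups did not overlap for Tpm3, Myoz2 and Tnnc1, 3 of 11 in the higher direction, where 4.51% of all genes were so. The part of the slow fibre share in the Atp2a2 and Sln values was not tested.

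Of the other tissues that express Atp2a2, Pln or Casq2, heart was represented by dim markers and smooth muscle by markers of which 2 of 6 were lower in every KO array, where 8.34% of all genes were so. Of 7 cardiac markers 6 had a mean under 16. Their summed intensity was 38.6 to 79.2 in KO muscle and 54.1 to 73.0 in WT muscle, with KO replicate 2 highest and KO replicate 3 lowest, and Myh6, the atrial and ventricular myosin of the mouse heart, read 6.4 to 17.8 in KO muscle and 6.9 to 8.3 in WT muscle. Nppb read 2.2 to 4 in KO muscle and 2.3 to 3.3 in WT muscle, near 0 in every array. Myl7, also dim, was lower in every KO array, at 1.8 to 6.7 in KO muscle and 6.9 to 17.8 in WT muscle. It was 1 of 7 cardiac markers without overlap, beside the same 8.34%. The 6 smooth muscle markers summed to 281 to 581 in KO muscle and 798 to 1171 in WT muscle, a gap carried by Acta2 (105.4 to 340.2 in KO muscle and 539.2 to 802 in WT muscle) and Smtn (97.1 to 150.1 in KO muscle and 204 to 252 in WT muscle). The other 4 overlapped between the groups, Myh11 among them at 7.8 to 39.3 in KO muscle and 13.2 to 37.2 in WT muscle.
The 6 measured adipocyte markers, white and brown, also summed to less in every KO array, 483 to 703 in KO muscle against 1430 to 2513 in WT muscle. Most of that gap lay in the brown fat genes Ucp1 (2.3 to 129.9 in KO muscle and 570.3 to 877.2 in WT muscle) and Cidea (135.8 to 191.2 in KO muscle and 429.9 to 824 in WT muscle). Retn and Lep were also lower in every KO array, which made 4 of 6 beside the same 8.34% of all genes, while Adipoq and Cidec overlapped. The 3 nerve and Schwann cell markers summed to 130.3 to 277 in KO muscle and 89.7 to 180 in WT muscle, with KO replicate 2 highest, through Mbp (264.7 there). S100b lay the other way, lower in every KO array (5 to 20.1 in KO muscle and 26.1 to 31.6 in WT muscle). That made 1 of 3 beside the same 8.34% of all genes. Mbp and the dim Nefl overlapped, and Nefl had the lower mean in KO muscle. The 3 endothelial markers summed to 251 to 461 in KO muscle and 289 to 351 in WT muscle, also with KO replicate 2 highest. Their part in the results was not tested.

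**Figure D3:**
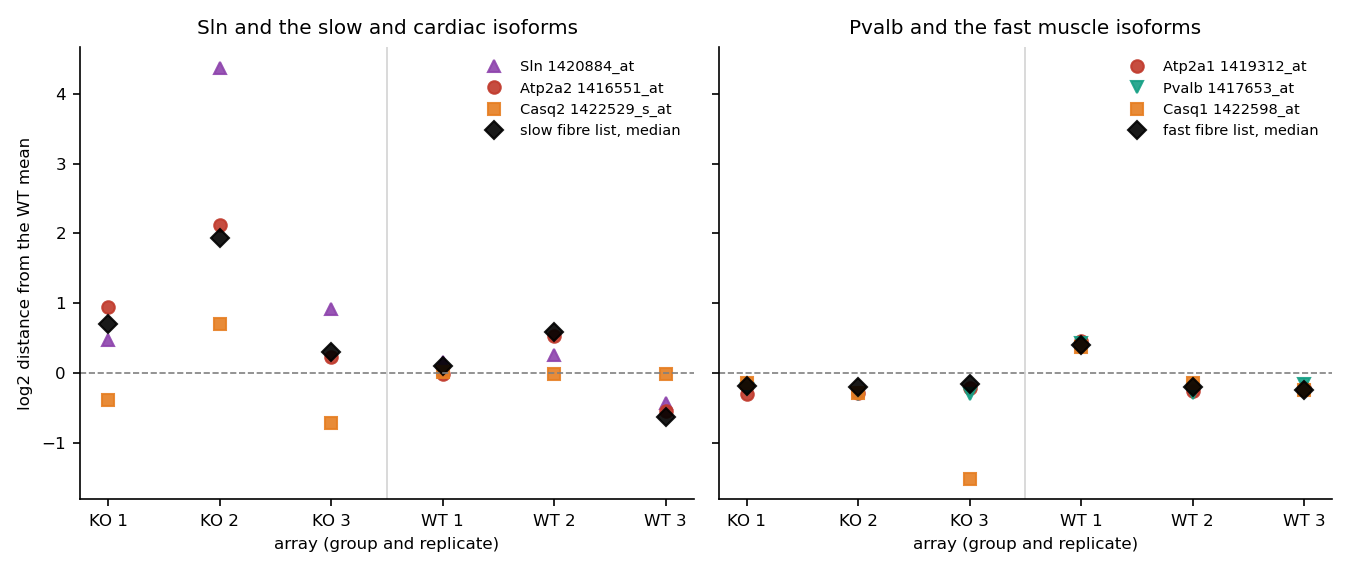
Log2 distance of each array from the WT mean (y axis) for the 3 KO and 3 WT arrays (x axis), with Sln, Atp2a2, Casq2 and the median of the slow fibre list on the left and Atp2a1, Pvalb, Casq1 and the median of the fast fibre list on the right. On the left Atp2a2 stays beside the slow list in all 6 arrays and Sln lies far above it in KO replicate 2 (4.37). On the right WT replicate 1 is raised for all 4 and Casq1 is low in KO replicate 3 (-1.51).

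The calcium buffer genes Casq1, Casq2 and Pvalb all had folds below 1, taken on the log2 scale, with intervals that span 1. On the linear scale the Casq2 means were level, at 194.3 in KO muscle and 193.2 in WT muscle. Casq1, the calsequestrin of fast muscle, read 6315.4, 5730.2 and 2434.2 in KO muscle, against 9052.1, 6302.8 and 5855 in WT muscle. KO replicate 3 was far below the other arrays and KO replicate 1 lay within the WT range. The fold was 0.642 (interval 0.342 to 1.20, adjusted p = 0.687 by limma), and it was 0.867 without KO replicate 3.
Casq2 (1422529_s_at, whose suffix marks probes that may match more than 1 gene) read 144.5, 326 and 112.4 in KO muscle, against 196.5, 191.3 and 191.9 in WT muscle. The WT arrays were nearly equal, with an SD of 2.84, while the KO arrays lay on both sides of them with an SD of 115. The fold was 0.916 (interval 0.518 to 1.62, adjusted p = 0.959), and it was 0.686 without KO replicate 2 and 1.12 without KO replicate 3. The distance between Casq2 and Casq1 on the log2 scale, set to 0 at the WT mean, was -0.25, 0.98 and 0.80 in KO muscle, against -0.36, 0.12 and 0.23 in WT muscle. KO replicates 2 and 3 exceeded the WT arrays, KO replicate 2 mainly through more Casq2 and KO replicate 3 through less Casq1.

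Pvalb, the soluble buffer parvalbumin of fast fibres, read 9067.8, 8574.9 and 8564.3 in KO muscle, against 14258.4, 8679.2 and 9520.3 in WT muscle (1417653_at). As for Atp2a1, WT replicate 1 stood alone. The fold was 0.827 (interval 0.594 to 1.15, adjusted p = 0.753 by limma), and 0.961 without WT replicate 1. Of the 11 genes of a fast fibre list 8 had lower means in KO muscle, none passed (lowest adjusted p = 0.735), none had groups that did not overlap, and the median log2 change was -0.18. That median turned to 0.01 with quantile normalization and to 0.06 without WT replicate 1. Mylpf, a fast regulatory light chain, read 10315.6, 10099.5 and 9098 in KO muscle, against 17905.4, 10408.8 and 10285.2 in WT muscle. Myl1, Mybpc2 and Myoz1, which encode a fast light chain, a fast myosin-binding protein and a Z-disc protein, had folds of 0.849, 0.880 and 1.13.

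The release channel gene Ryr1 varied little among the KO arrays. Probe set 1427306_at read 5382.8, 5720.8 and 5899.8 in KO muscle, against 5708, 4916.6 and 4207.4 in WT muscle. KO replicates 2 and 3 lay just above WT replicate 1, and the fold was 1.15 (interval 0.904 to 1.47, adjusted p = 0.746 by limma). Probe set 1457347_at read 763.8, 770.8 and 770.1 in KO muscle, against 630.9, 974.8 and 566 in WT muscle. All KO arrays lay between the WT arrays here, and the fold was 1.09 (interval 0.771 to 1.54, adjusted p = 0.920).
Cacna1s, the voltage sensor and pore of the dihydropyridine receptor, read 665.1, 452.1 and 326 in KO muscle, against 666.5, 719.5 and 487 in WT muscle (1420442_at). KO replicates 2 and 3 were below every WT array and KO replicate 1 was level with WT replicate 1. The fold was 0.756 (interval 0.478 to 1.19, adjusted p = 0.733), and 0.893 without KO replicate 3. Relative to Ryr1 1427306_at on the log2 scale, with the WT mean at 0, Cacna1s stood at -0.03, -0.65 and -1.15 in KO muscle, against -0.11, 0.22 and -0.11 in WT muscle.

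Jph1, which bridges the transverse tubule and the reticulum, read 804.3, 649.4 and 559.5 in KO muscle, against 841.1, 935.7 and 608.1 in WT muscle (1438428_at). The groups overlapped, and the fold was 0.851 (interval 0.602 to 1.20, adjusted p = 0.813 by limma). Its probe set 1421520_at read 242, 199.2 and 159.9 in KO muscle, against 227.2, 201.5 and 210.3 in WT muscle, a fold of 0.934 (interval 0.709 to 1.23, adjusted p = 0.921). KO replicate 3 was the lowest array for both Jph1 probe sets, as it was for Cacna1s, Casq1, Casq2 and Pvalb. For Pvalb it was nearly level with KO replicate 2 (8564.3 and 8574.9). This array also stood apart over the 19376 probe sets with a mean of at least 16. The SD of its log2 difference from another array was 0.497 to 0.723, against 0.331 to 0.534 between the other arrays. The part of this in the low values was not tested.

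**Figure D4:**
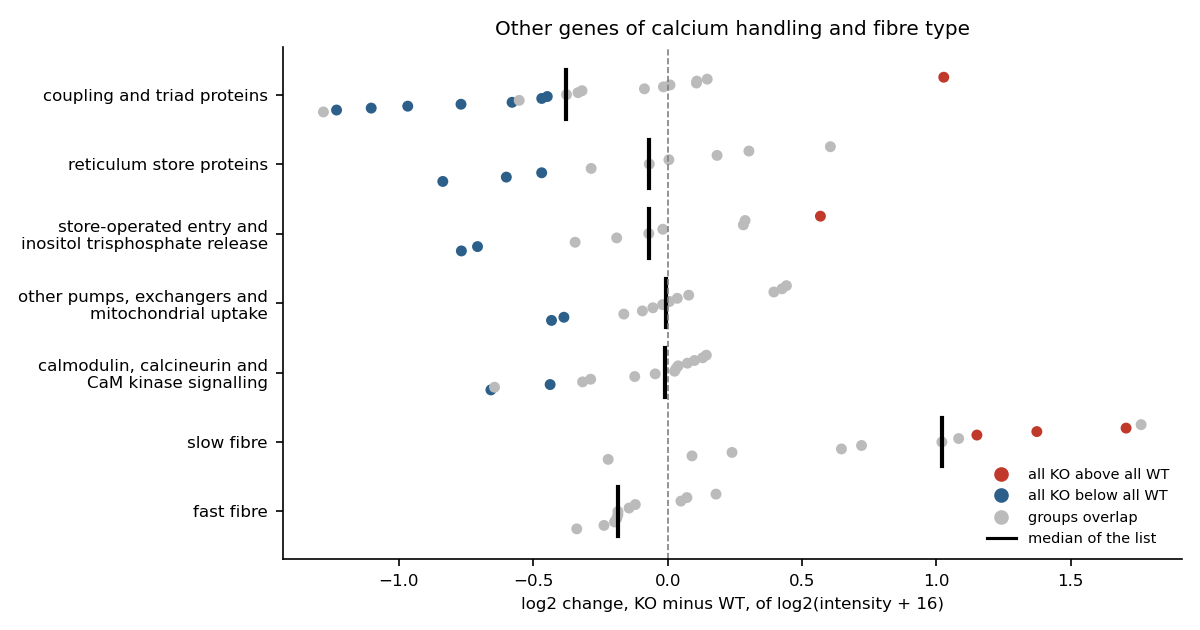
Log2 change, KO minus WT (x axis), of single genes of 5 further calcium handling lists and 2 fibre type lists (rows), each by its brightest probe set, with the list median as a black bar. Red and blue points mark genes whose 3 KO arrays lay all above or all below the 3 WT arrays. The medians run from -0.38 for coupling and triad proteins to 1.02 for slow fibre genes.

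Other proteins of the coupling site were mostly lower in KO muscle on average. Of 19 genes 14 had lower and 5 higher means, where 46.8% of all genes had higher ones. The median log2 change was -0.38, and none passed the test (lowest adjusted p = 0.485 by limma). The median was -0.21 without KO replicate 3 and -0.25 without WT replicate 1. The groups did not overlap for 7 in the lower and 1 in the higher direction, where 8.34% and 4.51% of all genes were so. The list median relative to the WT mean was -0.18, -0.25 and -0.60 in KO muscle, against 0.24, -0.02 and -0.24 in WT muscle, so WT replicate 3 lay within the KO values.
Stac3, an adaptor that couples Cacna1s to Ryr1, read 529.7, 283.1 and 192.6 in KO muscle, against 663.5, 763 and 621.6 in WT muscle (adjusted p = 0.529 by limma). The scaffold gene Homer2 read 25.7, 15.8 and 14.8 in KO muscle, against 100.1, 54.9 and 48.3 in WT muscle (adjusted p = 0.485). Its paralogue Homer1 read 340.5, 242.3 and 248.1 in KO muscle, against 634, 440.2 and 389.8 in WT muscle (adjusted p = 0.529). Every KO array was below every WT array for these 3 genes. Cacng1, the gamma subunit of the same dihydropyridine receptor as Cacna1s, lay the other way, with 503.1, 690.8 and 914.9 in KO muscle against 446.7, 302 and 258.1 in WT muscle, a fold of 2.04 (adjusted p = 0.524). Within this receptor Cacng1 was highest in KO replicate 3, the array where Cacna1s was lowest. The receptor's other subunits on this list, Cacnb1 and Cacna2d1, had folds of 0.942 and 1.01 and overlapped.

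No gene of the remaining 4 lists passed, and the sign of each list's median turned when at least 1 of the arrays was left out. Of 9 store proteins of the reticulum, 5 had lower means on the log2 scale (lowest adjusted p = 0.529). Their median log2 change was -0.07, and it was -0.20 with quantile normalization, -0.21 without WT replicate 3 and 0.043 without WT replicate 1. The groups did not overlap for 3 of the 9, all lower in KO muscle, where 8.34% of all genes were so. These were Calr, Calu and Rcn1, which encode chaperones and calcium-binding proteins of the general reticulum. Calr read 457.7, 412 and 489.1 in KO muscle, against 773.4, 568.5 and 572.3 in WT muscle. Calu had a fold of 0.660 and Rcn1 of 0.560. Tmem38b, a potassium channel of the reticulum, had a fold of 1.52 and overlapped.
Of 9 measured genes of store-operated entry and inositol trisphosphate release, 6 had lower means (median log2 change -0.07, lowest adjusted p = 0.529). The median ran from -0.18 without KO replicate 3 to 0.071 without KO replicate 2. The store sensor gene Stim2 read 56.5, 62.4 and 33.9 in KO muscle, against 109, 84.3 and 82.5 in WT muscle, and the entry channel gene Orai3 read 7.7, 13.3 and 8.7 in KO muscle, against 45.9, 17.1 and 25.3 in WT muscle. The groups did not overlap for either, nor for the dim release channel gene Itpr3, which read 13.5, 22.1 and 6.8 in KO muscle and 1.3, 6.6 and 4.1 in WT muscle. That made 2 of 9 in the lower and 1 of 9 in the higher direction, beside 8.34% and 4.51% of all genes. Itpr2 had a fold of 0.788 and overlapped. Stim1 and Orai1, the brighter paralogues of Stim2 and Orai3, had folds of 1.22 and 0.877 and also overlapped.

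Of 12 measured pumps, exchangers and mitochondrial uptake genes, 6 had higher and 6 lower means (median log2 change -0.01, lowest adjusted p = 0.537). The median ran from -0.041 without KO replicate 2 to 0.072 without KO replicate 3. Slc8a1, the sodium and calcium exchanger of the surface membrane, was dim at 2.6 to 4.3 in KO muscle and 7.7 to 14.1 in WT muscle. Letm1, of the mitochondrial inner membrane, read 96, 95.9 and 63.6 in KO muscle, against 124.5, 123.6 and 97.5 in WT muscle. Every KO array was below every WT array for Slc8a1 and Letm1, 2 of 12, beside 8.34% of all genes. Slc8b1, a mitochondrial exchanger, had a fold of 1.34, and the dim pump gene Atp2b2 read 9.5 to 13.3 in KO muscle and 0.8 to 12.3 in WT muscle. Of 14 measured genes of calmodulin, calcineurin and CaM kinase signalling, 7 had higher and 7 lower means (median log2 change -0.01, lowest adjusted p = 0.529). The median ran from -0.13 without KO replicate 3 to 0.023 without WT replicate 2. In 2 of the 14 every KO array was below every WT array, where 8.34% of all genes were so. These were the kinase genes Camk2d, with a fold of 0.739, and Camk2a, with a fold of 0.634. Rcan1, a calcineurin inhibitor and reporter of its activity, read 55.3, 89.8 and 75.1 in KO muscle, against 161.6, 149.8 and 73.1 in WT muscle, and Ppp3r1, the calcineurin regulatory subunit, had a fold of 0.820. Both overlapped between the groups. Over these 5 lists and the 2 fibre type lists, 0 of 85 measured genes passed, where 0.0055% of all genes did.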

How the data were processed

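The deposited values are linear intensities, 1 for each probe set on each array. How they were scaled or corrected for background is not given in the sources used here. No value column was left unused. Total RNA came from a TriPure extraction and carried a biotin label, per the labels' protocols. The 64 control probe sets were left out, each intensity was taken as log2(value + 16) without further normalization, and all 45037 remaining probe sets were tested in limma 3.58.1 (R 4.3.3, lmFit and eBayes, two-sided) with Benjamini-Hochberg adjustment over all of them. Intervals are at the 95% level. No detection calls were used. With 3 arrays a group, their number limits the precision. On simulated arrays with planted changes, the fit was checked only for the mean size of its estimates. How many real changes the test would miss in these arrays is not reported here.

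The platform annotation gave 1 symbol for 34945 probe sets, several for 932 and none for 9160. Of 92 genes on 7 further lists 85 were measured, and of 34 marker genes on 6 lists 31, each by its brightest probe set on average. The genes named beyond the 10 are the up to 4 of each further list with the lowest p, and markers that a sentence on their list needed. Cacnb1 and Cacna2d1 were added as subunits of the same receptor as Cacna1s, and Stim1 and Orai1 as paralogues of Stim2 and Orai3. The members and lists were chosen with earlier results of these data known. Promoters are from RefSeq (GRCm38.p6). Array values carry no build, so no gene positions are given with them.

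Alternatives were offsets of 1 and 64, quantile normalization, median centring, keeping only the brighter 22518 probe sets, eBayes with trend and robust options, a block for the replicate number, leaving out each array, that filter combined with scaling or a left-out array, and averaging the probe sets of a gene.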

Additional observations from a re-analysis of the deposited data

How the results depend on the processing

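No calcium handling probe set passed under any alternative over all 45037 probe sets, and none under the filter to the 22518 brighter probe sets, alone or with quantile normalization or median centring. With that filter and 1 array left out, between 0 and 3 of the 17 kept members passed by limma. They were Sln 1420884_at (log2 change 2.65) and Atp2a2 1437797_at (1.07) without KO replicate 1, 2 in all, and Sln 1420884_at (2.42), Atp2a2 1416551_at (1.53) and 1452363_a_at (1.25) without KO replicate 3, 3 in all, where 5.995% and 1.39% of the 22518 passed in these fits. Limma's prior degrees of freedom were 19.2 without KO replicate 1 and 227 without KO replicate 3, against 3 residual ones, so that each probe set was tested mostly against a variance shared by all. In the fit of all arrays and probe sets the prior was 2.78 and the residual 4. With all 6 arrays the filter gave Sln 1420884_at an adjusted p of 0.245 by limma. The filter took the mean over all 6 arrays, including the KO arrays and any array then left out. Atp2a2 1437797_at read 10.3, 13.2 and 12.4 in WT muscle, where the array medians were 10.8 to 15.0. Its higher KO arrays raised its place in the filter, so its passing there is not separate from them.

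The count over all probe sets was 4. It was 1 with an offset of 64, 9 with quantile normalization, 11 with median centring, 15 with a trended and robust variance and 1 to 6 with an array left out. It was 79 with the filter, 28 and 41 with the filter and quantile normalization or median centring, and with the filter and an array left out it was 8, 67 and 8 without WT replicates 1, 2 and 3 and 1350, 13 and 312 without KO replicates 1, 2 and 3. With the replicate block it was 0 (3367 at an unadjusted p under 0.05), and 0 members passed (4 at an unadjusted p under 0.05). Same-numbered arrays did not deviate together over the 19376 probe sets with a mean of at least 16 (correlations of 0.0029, 0.025 and -0.035). This cannot settle whether the numbers pair the mice. At Atp2a2 1416551_at and 1452363_a_at, though not at every member, both groups ran in the order of replicates 2, 1 and 3. There the block gave unadjusted p of 0.0038 and 0.0061 by limma, against 0.064 and 0.101 without it. The adjusted p with the block were 0.591 and 0.592.

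The sign of the change of the 15 brighter members held under each alternative except for 3 of them with an array left out, with the same values with and without the filter. Ryr1 1457347_at ran from -0.030 without WT replicate 3 to 0.35 without WT replicate 2. Casq2 ran from -0.54 without KO replicate 2 to 0.16 without KO replicate 3, with 0.0023 without KO replicate 1. Jph1 1421520_at ran from -0.23 without KO replicate 1 to 0.043 without KO replicate 3. A sign that held could still come with a change near 0. Atp2a1 went from -0.257 to -0.014 with quantile normalization and -0.030 without WT replicate 1. Pvalb went from -0.274 to -0.080 and -0.058 under the same 2 alternatives. The number without overlap was 3 of 15, beside 15.2% of the 19376 probe sets at this level. It was 3 to 4 under the other scalings and offsets, and 4 to 8 with an array left out, where fewer arrays make overlap rarer. The share over all probe sets was not counted under these alternatives, so their counts are not read as results about the members. The slow fibre median ran from 0.53 without KO replicate 2 to 1.32 without KO replicate 3, and was 0.65 when the probe sets of each gene were averaged. The cause of these shifts was not tested.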
